A study of Mus musculus with 2 samples.

Results

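The 10 genes described here make up the machinery of MHC class I display: the classical heavy chains H2-K1 and H2-D1, the non-classical heavy chains H2-Q4, H2-Q6, H2-Q7, H2-T22, H2-T23 and H2-M3, the light chain B2m, and Nlrc5, the gene of their transcriptional activator. They were chosen by name, and every transcript listed for them was taken, which gave 40 transcripts of 10 genes among 36980 gene symbols. RNA was measured in mouse pro-B cells, the early B cell precursors of bone marrow, of the genotypes Setdb1 Δ/Δ (gene deleted) and Setdb1 C/C (gene not deleted). SETDB1 methylates histone H3 and silences retroviral sequences. The cells were sorted from bone marrow, carried a bcl2 transgene in both genotypes, and were grown with IL-7, a growth factor of B cell precursors, at 5 ng/µl for 4 days before total RNA was depleted of ribosomal RNA and sequenced in read pairs of 101 bases. With 1 library per genotype there is no replicate to set a difference against, and no test was made. The labels state no sex, age, strain or MHC haplotype, no promoter for the transgene, and no exons for the deletion.

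Class I molecules sit on the surface of nearly all nucleated cells and show peptides from inside the cell to CD8 T cells and natural killer cells. A polymorphic heavy chain folds with the invariant light chain beta 2 microglobulin and is loaded with peptide in the endoplasmic reticulum. NLRC5 acts on class I promoters through a protein complex on the S, X and Y boxes that holds RFX proteins, CREB or ATF factors and NF-Y, and interferons raise NLRC5 and class I genes alike. The related activator CIITA does the same work at class II genes.

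The 2 members furthest apart between the genotypes, H2-Q6 and H2-Q7, lie side by side on chromosome 17 and their start regions are close copies. The 250 bases before the start sites of these genes are shown with those of H2-K1, the most abundant heavy chain, and of B2m, so that the shared control elements can be read against the values that follow. Capitals mark matches, on either strand, to CCAAT (bound by NF-Y), TGACG (the core of a CREB or ATF site), the paired interferon regulatory factor element and the NF-κB consensus. Sequences are those of RefSeq on GRCm38.p6, each read along its gene's strand. H2-K1 has 2 listed start sites, and the more downstream is used.
H2-Q6, chr17:35424600-35424849, plus strand: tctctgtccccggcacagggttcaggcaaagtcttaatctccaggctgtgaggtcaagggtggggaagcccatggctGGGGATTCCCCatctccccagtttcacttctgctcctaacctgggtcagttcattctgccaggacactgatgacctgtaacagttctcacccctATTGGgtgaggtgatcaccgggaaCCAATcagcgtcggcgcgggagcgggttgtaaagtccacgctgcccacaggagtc
H2-Q7, chr17:35438905-35439154, plus strand: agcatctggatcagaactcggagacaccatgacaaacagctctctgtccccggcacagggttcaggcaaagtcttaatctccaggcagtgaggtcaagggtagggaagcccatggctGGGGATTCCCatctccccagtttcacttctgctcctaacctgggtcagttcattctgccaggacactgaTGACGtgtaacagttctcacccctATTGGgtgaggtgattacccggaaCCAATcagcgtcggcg
H2-K1, chr17:34000334-34000583, minus strand: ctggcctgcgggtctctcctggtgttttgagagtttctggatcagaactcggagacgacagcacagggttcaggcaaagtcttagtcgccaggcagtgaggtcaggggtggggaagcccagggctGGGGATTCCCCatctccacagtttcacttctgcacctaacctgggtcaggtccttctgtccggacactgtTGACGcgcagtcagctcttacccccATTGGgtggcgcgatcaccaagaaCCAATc
B2m, chr2:122147437-122147686, plus strand: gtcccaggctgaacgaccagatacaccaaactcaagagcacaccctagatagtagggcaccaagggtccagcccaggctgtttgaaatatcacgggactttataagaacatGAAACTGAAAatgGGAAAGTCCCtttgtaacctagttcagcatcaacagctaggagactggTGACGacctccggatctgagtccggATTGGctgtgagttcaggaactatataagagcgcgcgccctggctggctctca

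The windows of H2-Q6 and H2-Q7 were 97.6% identical over 210 aligned bases. H2-K1 and H2-Q7 were 88.7% identical over 213 bases, and H2-K1 and H2-Q6 87.3% over 189 bases. A CCAAT match stood in the windows of all 9 members that have an entry in the table, against 33.8% of all 32851 windows of the same length. The NF-κB consensus matched in 8 of the 9 (3.90% of all windows), TGACG in 7 (17.8%), and the interferon factor pair in 3, namely B2m, H2-T22 and H2-T23 (2.98%). TGACG was present in H2-Q7 and had no match in H2-Q6, and the interferon factor pair had no exact match in either gene. Variants of the paired pattern were not searched for, so a missing match does not show that a window lacks an interferon element. In B2m the interferon factor pair lay just upstream of the NF-κB match. In H2-M3 a CCAAT match overlapped the NF-κB match, and in H2-K1, H2-D1, H2-Q4 and H2-Q6 overlapping NF-κB matches lay 1 base apart. These matches describe letters and were not tested as binding sites.

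Values are RPKM, reads per kilobase of transcript scaled to the reads of the library, and the depths recovered from them were 193 M reads in Δ/Δ and 171 M in C/C. Setdb1 measured 12.6 RPKM in Δ/Δ and 16.97 RPKM in C/C, a ratio of 0.743, over whole transcripts, which cannot show how complete the deletion was. Intervals given with ratios are exact 95% intervals for counting error only, with 2 reads taken as 1 fragment. Markers of B cell precursors were present in both libraries, with 15 of 15 listed genes at 1 RPKM or more. They summed to 4358 RPKM in Δ/Δ and 5169 RPKM in C/C. Single markers differed more than this sum, with 1 higher and 4 lower in Δ/Δ by the size rule given below. The libraries differed in sex-linked RNA (Xist 23.7 RPKM in Δ/Δ and 0.0940 RPKM in C/C, and Ddx3y 0.00900 RPKM in Δ/Δ and 10.2 RPKM in C/C), so genotype and sex cannot be told apart for any value below.

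Genes are called higher or lower when log2((Δ/Δ + 0.5) / (C/C + 0.5)) of RPKM reached 1 or -1, which is 2-fold on that scale. A gene is represented by its transcript of highest mean RPKM and counts as measured if either library had 1 RPKM. All 10 members were measured. Of these 2 were higher in Δ/Δ and 0 were lower, whereas 6.28% of the 12556 genes measured overall were higher, 6.66% lower and 12.9% either. With so few members the count stands for 2 named genes and not for the group. The median log2 ratio of the members was 0.43, beside -0.09 over all measured genes. In 8 of the 10 members the value was above that of C/C and in 2, H2-D1 and H2-T23, below it. In bulk RNA fewer cells of a type and less RNA per cell cannot be told apart.

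**Figure D1:**
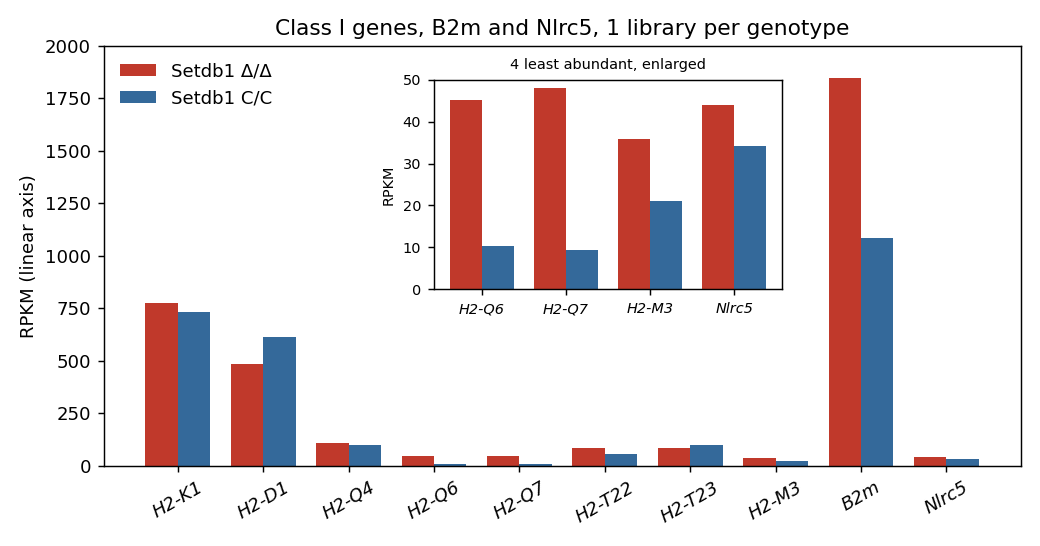
RPKM (vertical axis, linear) of the transcript of highest mean RPKM of each gene, in the Setdb1 Δ/Δ library (red) and the Setdb1 C/C library (blue), with the 4 least abundant genes enlarged in the inset. Bars are single libraries without error. B2m reaches 1847 RPKM in Δ/Δ and 1084 RPKM in C/C, and H2-Q6 and H2-Q7 exceed 45 RPKM in Δ/Δ alone.

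The classical heavy chains present peptides to CD8 T cells and carried most of the class I heavy chain RNA in both libraries. H2-K1, on the minus strand of chromosome 17 (GRCm38, 33996017 to 34000347), had 778 RPKM in Δ/Δ and 731 RPKM in C/C. Its ratio, Δ/Δ over C/C as throughout, was 1.06 (interval 1.05 to 1.08, from 87005 and 72273 reads). Its 9 transcripts ran from a ratio of 1.02 to 1.14, so the gene stood almost level between the libraries whichever transcript was read. H2-D1, on the plus strand (chromosome 17, 35262730 to 35267499), had 483 RPKM in Δ/Δ and 613 RPKM in C/C. Its ratio was 0.789 (interval 0.773 to 0.805), and its 4 transcripts lay between 0.789 and 0.836. Neither gene reached the size rule, and the 2 lay on opposite sides of a ratio of 1. In their coding sequences H2-K1 and H2-D1 are 91.5% identical over 1080 aligned bases. None of the 101-base windows (the read length) of either representative transcript, 579 and 391 bases long, occurs in a transcript of another gene. Longer transcripts of both genes do share windows. Among others, 3.28% of the windows of H2-T23 and 1.51% of those of H2-Q6 occur in H2-D1, and 0.852% of those of H2-Q5 in H2-K1.

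The Q region genes split. H2-Q7 encodes a chain of the Qa-2 antigen, a non-classical class I molecule that can be anchored to the membrane by a lipid. It measured 47.9 RPKM in Δ/Δ and 9.50 RPKM in C/C (chromosome 17, 35439155 to 35443773, plus strand). The gene was higher in Δ/Δ, with a ratio of 5.05 (interval 4.70 to 5.42, from 10507 and 1839 reads) and a log2 ratio of 2.28. H2-Q6, its neighbour and a further gene of the Qa-2 family, measured 45.2 RPKM in Δ/Δ and 10.4 RPKM in C/C (chromosome 17, 35424850 to 35430055, plus strand). It was also higher, with a ratio of 4.37 (interval 4.15 to 4.59) and a log2 ratio of 2.07. Among all measured genes H2-Q7 ranked 149th and H2-Q6 203rd by log2 ratio. All 6 transcripts of H2-Q7 (ratios 4.06 to 5.08) and both of H2-Q6 (3.73 and 4.37) passed the rule.

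H2-Q4, which encodes the Qb-1 antigen and lies in the same cluster, measured 108 RPKM in Δ/Δ and 101 RPKM in C/C, a ratio of 1.07 (interval 1.05 to 1.09). It did not pass the rule, although its coding sequence is 90.2% identical to that of H2-Q6 and 90.8% to that of H2-Q7. H2-Q6 and H2-Q7 are 95.4% identical to each other over 981 aligned bases. Of the 101-base windows of the H2-Q6 transcript, 8.31% occur in H2-Q7, and of those of the H2-Q7 transcript 6.38% occur in H2-Q5, so reads of these genes can be placed on either copy in part. The H2-Q4 transcript shares 11.05% of its windows with Gm11131, an antisense gene that overlaps it, and the libraries' kit does not mark strand.

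**Figure D2:**
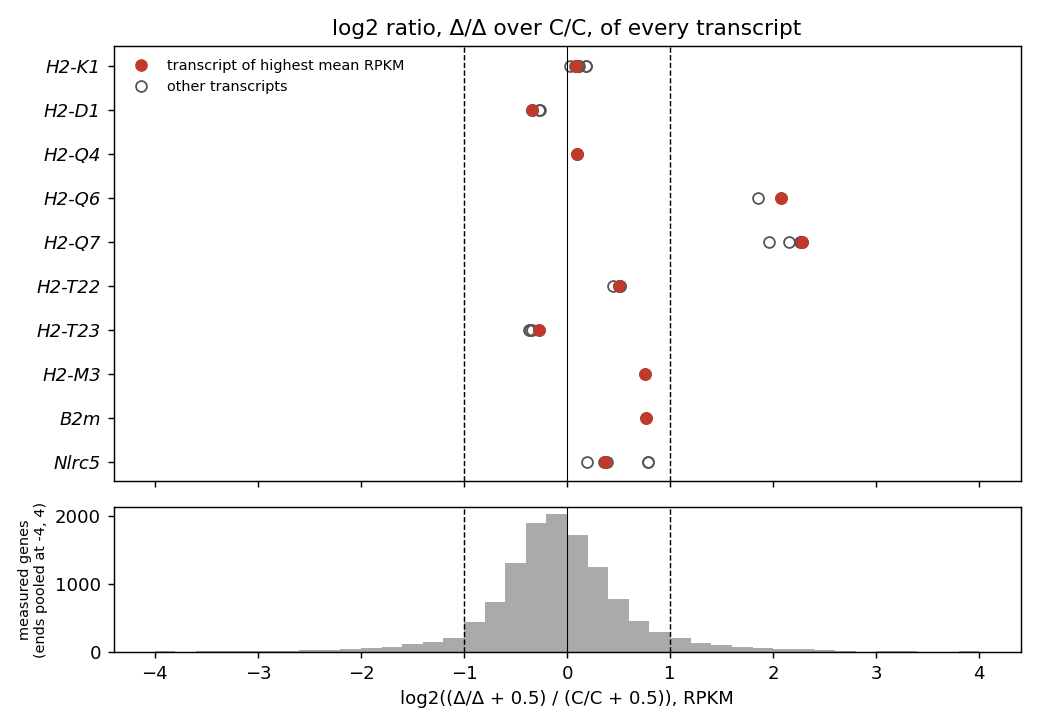
Log2 ratio of Δ/Δ to C/C (horizontal axis, RPKM with 0.5 added) for every listed transcript of the 10 genes (upper panel, filled points for the transcript of highest mean RPKM, open points for the others) above the distribution over all 12556 measured genes (lower panel, values beyond 4 in either direction pooled at the ends). Dashed lines mark the size rule. All transcripts of H2-Q6 and H2-Q7 lie beyond the line at 1, and those of the other genes lie between the lines.

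The T and M region genes encode class I molecules with specialised ligands. H2-T23 encodes Qa-1, which shows leader peptides of other class I chains to CD94/NKG2 receptors of natural killer cells. It measured 83.5 RPKM in Δ/Δ and 101 RPKM in C/C, a ratio of 0.825 (interval 0.805 to 0.846), and its 4 transcripts ran from 0.772 to 0.825. H2-T22, whose product is recognised by a subset of gamma delta T cells, measured 82.8 RPKM in Δ/Δ and 58.3 RPKM in C/C, a ratio of 1.42 (interval 1.38 to 1.46). H2-M3, which presents formylated peptides such as those of bacteria, measured 35.7 RPKM in Δ/Δ and 21.0 RPKM in C/C, a ratio of 1.70 (interval 1.62 to 1.79). None of these genes passed the size rule. The H2-T22 transcript shares 9.90% of its 101-base windows with H2-T10, and H2-T23 shares 4.37% with Gm7030 and 3.28% with H2-D1, whereas H2-M3 shares none. H2-T22 and H2-T23 are overlapped by the antisense gene A930015D03Rik, which measured 1.93 RPKM in Δ/Δ and 4.07 RPKM in C/C.

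B2m encodes the light chain with which class I heavy chains reach the surface, and it was the most abundant member (chromosome 2, 122147686 to 122153083, plus strand). It measured 1847 RPKM in Δ/Δ and 1084 RPKM in C/C, a ratio of 1.70 (interval 1.69 to 1.72, from 307015 and 159062 reads). Its log2 ratio of 0.77 did not reach the rule. The opposite-strand gene Patl2, which spans it, was listed at 0 in both libraries. By level B2m ranked 53rd among measured genes in Δ/Δ and 105th in C/C. The 8 heavy chains summed to 1664 RPKM in Δ/Δ and 1646 RPKM in C/C, a ratio of 1.01. The level of B2m relative to that sum was therefore 1.11 in Δ/Δ and 0.659 in C/C. With the longest protein-coding transcript of each heavy chain it was 1.18 in Δ/Δ and 0.723 in C/C.

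The make-up of the heavy chain sum differed between the libraries. H2-K1 gave 46.7% of it in Δ/Δ and 44.5% in C/C, and H2-D1 29.0% in Δ/Δ and 37.2% in C/C. H2-Q6 gave 2.72% in Δ/Δ and 0.630% in C/C, and H2-Q7 2.88% in Δ/Δ and 0.578% in C/C. The 6 non-classical heavy chains together had 403 RPKM in Δ/Δ and 301 RPKM in C/C, a ratio of 1.34, while the 2 classical ones had 1261 RPKM in Δ/Δ and 1344 RPKM in C/C, a ratio of 0.938.

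Nlrc5 encodes the activator of class I promoters (chromosome 8, 94434356 to 94527272, plus strand). Its transcript of highest RPKM, a spliced form annotated as a target of nonsense-mediated decay, measured 44.0 RPKM in Δ/Δ and 34.1 RPKM in C/C, a ratio of 1.29 (interval 1.23 to 1.36), with a log2 ratio of 0.36 that did not pass the rule. The longest of its listed protein-coding transcripts, ENSMUST00000053085, measured 33.1 RPKM in Δ/Δ and 25.2 RPKM in C/C, a ratio of 1.32 (interval 1.29 to 1.35). Its transcripts were not alike. A pair of short transcripts at the 3′ end of the gene, ENSMUST00000098489 and ENSMUST00000137032, measured 19.4 and 19.3 RPKM in Δ/Δ, against 11.05 and 11.02 RPKM in C/C, with ratios of 1.76 and 1.75. A retained-intron transcript just upstream of them, ENSMUST00000183287, measured 23.98 RPKM in Δ/Δ and 20.9 RPKM in C/C, a ratio of 1.14 (interval 1.06 to 1.23). Transcripts of Nlrc5 share exons in part, and none passed the rule. The opposite-strand gene 9330175E14Rik, which overlaps it over 748 bases, measured 8.40 RPKM in Δ/Δ and 7.65 RPKM in C/C.

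The order of levels was B2m, H2-K1, H2-D1, H2-Q4, H2-T23, H2-T22, H2-Q7, H2-Q6, Nlrc5 and H2-M3 in Δ/Δ. In this library the counting intervals of H2-T23 (82.0 to 85.01 RPKM) and H2-T22 (81.3 to 84.2 RPKM) overlapped, as did those of H2-Q6 (44.3 to 46.2 RPKM) and Nlrc5 (42.6 to 45.4 RPKM). In C/C the order was B2m, H2-K1, H2-D1, H2-T23, H2-Q4, H2-T22, Nlrc5, H2-M3, H2-Q6 and H2-Q7. Here the intervals of H2-T23 (99.5 to 103 RPKM) and H2-Q4 (99.5 to 102.7 RPKM) overlapped, and so did those of H2-Q6 (9.89 to 10.8 RPKM) and H2-Q7 (8.90 to 10.14 RPKM). H2-Q6 and H2-Q7 thus held the lowest places in C/C. In Δ/Δ both lay above H2-M3, and H2-Q7 lay above Nlrc5, whereas counting error did not separate H2-Q6 from Nlrc5. The level of Nlrc5 here is that of its transcript annotated as a target of nonsense-mediated decay. Its longest protein-coding transcript measured 33.1 RPKM in Δ/Δ and 25.2 RPKM in C/C.

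Of the 10 members 8 lie in the MHC on chromosome 17, and their neighbours were read alongside, a comparison chosen after the values were seen. Between H2-K1 and H2-M3 there were 120 measured genes, of which 6 were higher and 15 lower, beside 6.28% and 6.66% of all measured genes. The 8 members had 2 higher and 0 lower with a median log2 ratio of 0.30. The 8 class II list genes in the interval had 0 higher and 8 lower, and the 104 other genes had 4 higher and 7 lower with a median of -0.27. H2-Q5, annotated as a polymorphic pseudogene between H2-Q4 and H2-Q6, measured 17.2 RPKM in Δ/Δ and 9.54 RPKM in C/C and did not pass the rule, and 12.6% of its 101-base windows occur in other genes. H2-Q10, on the other side of H2-Q7, measured 1.35 RPKM in Δ/Δ and 1.04 RPKM in C/C, and the next measured gene, Tcf19, was lower at 18.6 RPKM in Δ/Δ and 43.7 RPKM in C/C. The cytokine genes Lta (21.3 RPKM in Δ/Δ and 6.83 RPKM in C/C) and Tnf (11.5 RPKM in Δ/Δ and 4.29 RPKM in C/C), upstream of H2-D1, were higher.

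**Figure D3:**
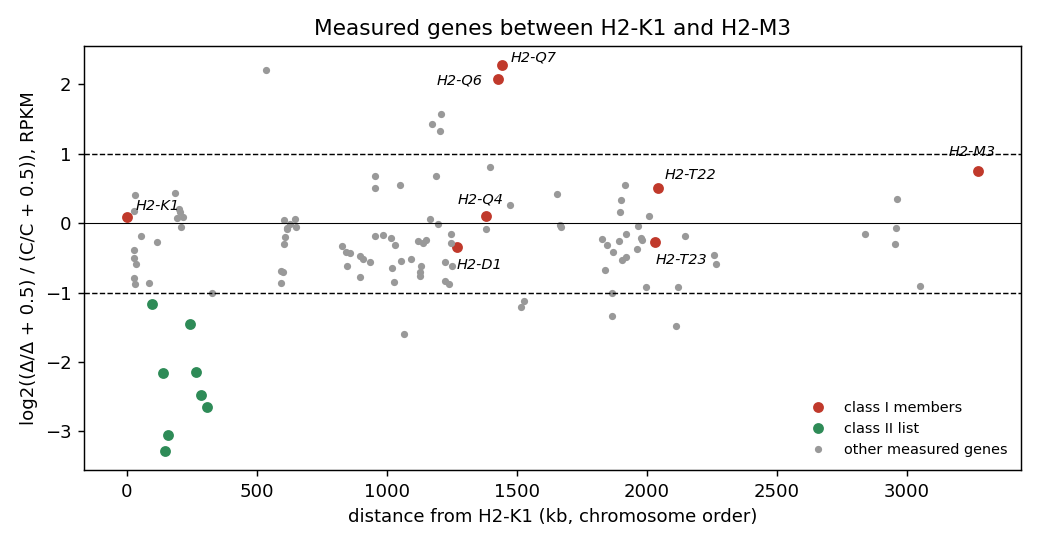
Log2 ratio of Δ/Δ to C/C (vertical axis, RPKM with 0.5 added) of the 120 measured genes between H2-K1 and H2-M3, against their distance from H2-K1 in kilobases. Red points are class I members, green points the class II list and grey points other genes, and dashed lines mark the size rule. H2-Q6 and H2-Q7 stand above 2 beside H2-Q4 near 0.1, and the class II genes lie below -1.

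Most genes that cut, carry and load peptides for class I stayed within the rule, but the share called higher exceeded that of all measured genes. That share was 6.28% across all measured genes, where the median log2 ratio was -0.09. Of 20 listed genes of antigen processing and loading, all measured, 4 were higher and 0 lower, with a median log2 ratio of 0.34. The 4 were Pdia3 (71.9 RPKM in Δ/Δ and 20.5 RPKM in C/C), Calr (806 RPKM in Δ/Δ and 263 RPKM in C/C), Canx (464 RPKM in Δ/Δ and 165 RPKM in C/C) and Tpp2 (33.9 RPKM in Δ/Δ and 15.5 RPKM in C/C). Calr, Canx and Pdia3 encode calreticulin, calnexin and ERp57, which fold glycoproteins of all kinds, and Tpp2 encodes a cytosolic peptidase. The other 16 ran from -0.41 to 0.60 on the log2 scale. Among these, named after their values were seen, were the peptide transporter genes Tap1 (158 RPKM in Δ/Δ and 149.7 RPKM in C/C) and Tap2 (53.3 RPKM in Δ/Δ and 55.2 RPKM in C/C). The tapasin gene Tapbp measured 74.0 RPKM in Δ/Δ and 98.8 RPKM in C/C. The immunoproteasome genes measured 328 RPKM in Δ/Δ and 284 RPKM in C/C for Psmb8, 103.7 RPKM in Δ/Δ and 76.95 RPKM in C/C for Psmb9, and 88.2 RPKM in Δ/Δ and 105.6 RPKM in C/C for Psmb10. None of these 6 genes passed the rule.

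Across all measured genes 6.28% were higher and 6.66% lower. The counts that follow rest on few measured genes and stand for the genes named, not for either list. Of 28 listed symbols of other class I and class I-like genes 23 were in the table and 9 were measured, of which 0 were higher and 2 lower (median log2 ratio -0.17). The lower ones were the pseudogenes H2-T-ps (12.2 RPKM in Δ/Δ and 34.8 RPKM in C/C) and H2-K2 (5.80 RPKM in Δ/Δ and 15.2 RPKM in C/C). H2-T10, the close relative of H2-T22, measured 19.3 RPKM in Δ/Δ and 36.9 RPKM in C/C, a ratio of 0.524 (interval 0.4999 to 0.550) where that of H2-T22 was 1.42. H2-T10 shares 11.4% of its 101-base windows with H2-T22. Cd1d1, which presents lipids, measured 13.1 RPKM in Δ/Δ and 24.2 RPKM in C/C. Neither H2-T10 nor Cd1d1 passed the rule. Of the class I-like ligands of the activating receptor NKG2D, 5 of 8 symbols were in the table and 3 measured. Raet1e (0.132 RPKM in Δ/Δ and 1.80 RPKM in C/C) and Raet1d (0.102 RPKM in Δ/Δ and 1.31 RPKM in C/C), related genes whose sharing of reads was not measured, were lower, and Ulbp1 (18.1 RPKM in Δ/Δ and 12.5 RPKM in C/C) did not pass the rule.

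Of the factors that act at class I promoters 0 were higher and 2 lower of 25 measured (median log2 ratio -0.18). Over all measured genes 6.28% were higher and 6.66% lower, so the list count says little about these factors as a group. Ciita, the relative of Nlrc5 that drives class II genes, was lower at 1.01 RPKM in Δ/Δ and 9.74 RPKM in C/C, a ratio of 0.103 (interval 0.0947 to 0.113). Its class II targets were lower too, 9 of 9 measured, with a median log2 ratio of -2.15. These were led by H2-DMb2 (5.47 RPKM in Δ/Δ and 57.6 RPKM in C/C), H2-DMb1 (2.01 RPKM in Δ/Δ and 20.4 RPKM in C/C), H2-Eb1 (14.9 RPKM in Δ/Δ and 96.0 RPKM in C/C) and H2-Aa (26.2 RPKM in Δ/Δ and 147.8 RPKM in C/C). The NF-κB subunit gene Relb was lower as well (7.96 RPKM in Δ/Δ and 18.0 RPKM in C/C), and Nfkb2 measured 15.3 RPKM in Δ/Δ and 26.3 RPKM in C/C. Genes chosen after their values were seen include the RFX subunit genes Rfx5 (10.5 RPKM in Δ/Δ and 15.04 RPKM in C/C), Rfxap (12.4 RPKM in Δ/Δ and 17.9 RPKM in C/C) and Rfxank (6.56 RPKM in Δ/Δ and 9.33 RPKM in C/C). Irf1, an interferon regulatory factor, measured 93.1 RPKM in Δ/Δ and 97.5 RPKM in C/C.

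Upstream of these factors, 1 of 11 measured genes of interferon receptors and their kinases and feedback was higher and 0 were lower (median log2 ratio 0.01). With 6.28% of all measured genes higher and 6.66% lower, the counts of this list and of the turnover list below say little about either group. The higher gene of the receptor list was Usp18, an interferon-induced brake on the type I receptor, with 8.34 RPKM in Δ/Δ and 0.940 RPKM in C/C. The feedback gene Socs1 (12.3 RPKM in Δ/Δ and 18.8 RPKM in C/C) and the receptor genes Ifnar1 (26.4 RPKM in Δ/Δ and 36.9 RPKM in C/C) and Ifngr2 (33.2 RPKM in Δ/Δ and 46.3 RPKM in C/C) did not pass the rule. None of 10 interferon genes reached 1 RPKM, and 9 in Δ/Δ and 8 in C/C were listed at 0, with Ifng at 0 in Δ/Δ and 0.204 RPKM in C/C. Of a list of ubiquitin ligases and proteases of membrane protein turnover, some of them known for acting on class II molecules, 7 of 11 symbols were in the table and 6 measured, with 0 higher and 1 lower (median log2 ratio -0.12). The lower one was March1, a membrane ubiquitin ligase known for acting on class II molecules, at 0.520 RPKM in Δ/Δ and 3.38 RPKM in C/C. March8 measured 1.69 RPKM in Δ/Δ and 3.17 RPKM in C/C, Sppl2a 38.2 RPKM in Δ/Δ and 24.7 RPKM in C/C, and Rnf139 8.05 RPKM in Δ/Δ and 6.65 RPKM in C/C.

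**Figure D4:**
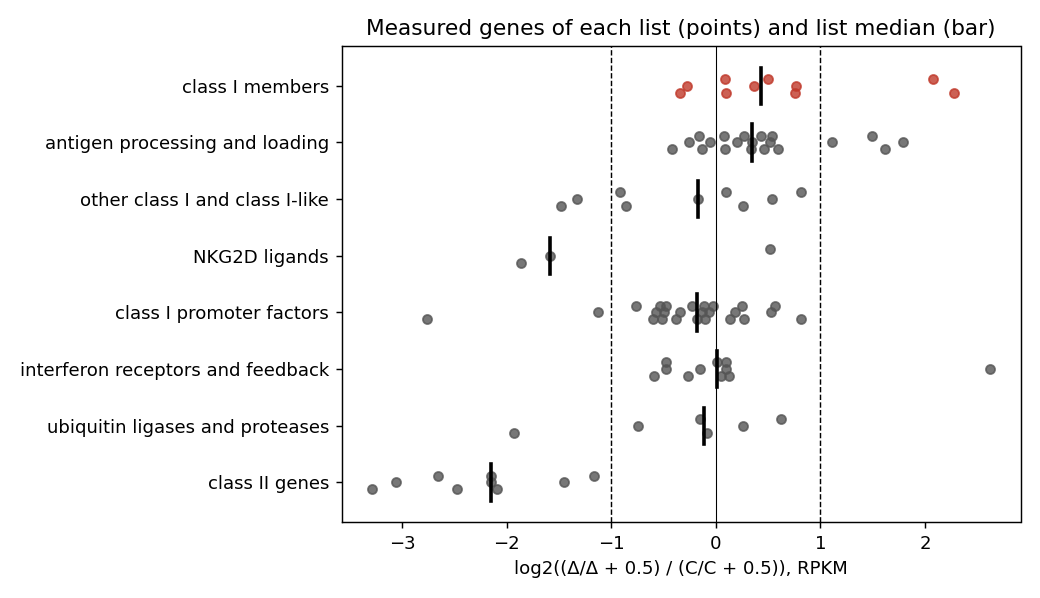
Log2 ratio of Δ/Δ to C/C (horizontal axis, RPKM with 0.5 added) of the measured genes of each list (points) with the list median (black bar), and dashed lines at the size rule. The median of the 10 class I members is 0.43 and that of the 9 class II genes -2.15.

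Most measured markers of the myeloid, dendritic, and erythroid and platelet lists were higher in Δ/Δ, and most of later B cells were lower. Those of T and natural killer cells went both ways. The part of any of these markers in the class I values was not tested. The shares over all measured genes, beside which the counts stand, were 6.28% higher and 6.66% lower. Myeloid markers had 11 higher and 0 lower of 14 measured, and the list of 22 summed to 313 RPKM in Δ/Δ and 91.9 RPKM in C/C. Lyz2 measured 120.0 RPKM in Δ/Δ and 9.01 RPKM in C/C and S100a8 30.8 RPKM in Δ/Δ and 0.463 RPKM in C/C, while Mpo, Elane and Ms4a3 were listed at 0 in C/C. Spi1 went the other way, with 34.1 RPKM in Δ/Δ and 54.1 RPKM in C/C, and did not pass the rule. Of 7 measured dendritic cell markers 5 were higher and 0 lower (sum over 14 genes 412 RPKM in Δ/Δ and 395 RPKM in C/C). Klk1 measured 2.10 RPKM in Δ/Δ and 0.0540 RPKM in C/C, and Siglech 5.64 RPKM in Δ/Δ and 0.850 RPKM in C/C. Clec9a (0.081 RPKM in Δ/Δ) and Batf3 (0.08 RPKM in Δ/Δ) were at 0 in C/C. Others, named after their values were seen, went the other way without passing the rule. These were Irf8 (229 RPKM in Δ/Δ and 290 RPKM in C/C), Xcr1 (0.081 RPKM in Δ/Δ and 0.132 RPKM in C/C) and Zbtb46 (0.082 RPKM in Δ/Δ and 0.132 RPKM in C/C). Erythroid and platelet markers had 6 higher and 0 lower of 7 measured (sum over 11 genes 77.9 RPKM in Δ/Δ and 9.28 RPKM in C/C). Markers of T and natural killer cells had 2 higher and 1 lower of 4 (sum over 15 genes 98.9 RPKM in Δ/Δ and 104 RPKM in C/C), and Ncr1 and Gzma were at 0 in both libraries. Mast cell and basophil markers had 1 higher of 1 measured (sum over 7 genes 1.95 RPKM in Δ/Δ and 0.00400 RPKM in C/C, with 2 genes at 0 in Δ/Δ and 6 in C/C), and stromal markers 2 higher and 0 lower of 3 (sum over 8 genes 27.6 RPKM in Δ/Δ and 32.1 RPKM in C/C). Markers of later B cells were lower in 6 of 7 and higher in 0 (sum over 8 genes 256 RPKM in Δ/Δ and 567 RPKM in C/C), among them Ms4a1, which encodes CD20, at 5.07 RPKM in Δ/Δ and 69.3 RPKM in C/C. Of the B cell precursor markers 1 was higher and 4 lower of 15, with a median log2 ratio of -0.32. Furthest apart were Rag1 (6.64 RPKM in Δ/Δ and 27.3 RPKM in C/C) and Cd79a (153 RPKM in Δ/Δ and 548 RPKM in C/C), both lower.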

How the data were processed

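The authors deposited 1 RPKM value per Ensembl transcript and library, rounded to 3 decimals, for 93615 transcripts. Per the submitters' processing notes, TopHat2 2.0.9 and bedtools were used with the builds mm9 and mm10. The counting rule, strand setting and annotation release were not given in the sources used here. Columns headed Del and Wt were read as Δ/Δ and C/C, the only match the labels allow.

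Identifiers were matched to GENCODE M21 (GRCm38), which named 89571 transcripts (95.7%); coordinates and lengths are from it. Depth was recovered as the number of reads at which RPKM multiplied by transcript length is whole. The low values used for this search (transcripts 100 to 800 bases long) lay within 0.1 of a whole read in 95.6% of cases in Δ/Δ and 96.4% in C/C. These shares measure the fit at the depth chosen from the same values and are not a separate check. More transcripts had 2 reads than 1, so 2 reads were taken as 1 fragment. At these depths counting intervals are narrow and say nothing of the spread between cultures. The depth search, size rule and interval were tested on simulated data. With 1 library per genotype no test across genes was made.

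Named genes are all members, Setdb1, Ciita, up to 4 measured genes of each of 8 pathway lists and up to 2 of each of 8 marker lists with the largest absolute log2 ratio, of which 1 is not reported here. Members and lists were chosen with earlier results of these data known. The 101-base windows were compared exactly with all GENCODE M21 transcripts on both strands. Alignments used Biopython 1.88, intervals SciPy 1.17.1. Alternatives covered the pseudocount, filter, scaling, transcript choice and fold of the size rule.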

Additional observations from a re-analysis of the deposited data

How the results depend on the processing

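No paired analysis was possible because each genotype had 1 library, and for the same reason no library could be left out. Over 9 alternatives of pseudocount, filter, scaling and transcript choice, all 10 members kept the sign of their log2 ratio, and H2-Q6 (1.99 to 2.17) and H2-Q7 (2.22 to 2.37) were the members past the rule in each. These are not 9 separate checks. A filter cannot change the log2 ratio of a member, and scaling shifts all genes by nearly the same amount. Centring on the median of all measured genes shifted every log2 ratio by 0.09 and gave 906 higher and 728 lower genes. The log2 ratio of Setdb1 was -0.41 as reported, -0.32 after centring, -0.35 with a common RPKM sum, -0.33 with that sum without the 20 most abundant genes, and -0.36 with the sum of transcripts.

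A 1.5-fold rule gave 4 higher members (H2-Q6, H2-Q7, H2-M3 and B2m) and 0 lower, with 1583 higher and 2101 lower genes in all. It gave 1 higher and 4 lower of the other class I genes, 1 higher and 4 lower promoter factors, 1 lower gene of the interferon receptor and feedback list (Socs1), and 1 higher and 2 lower genes of the turnover list. A 4-fold rule gave 2 higher members, 220 higher and 234 lower genes in all, 0 higher genes of antigen processing, 0 lower of the other class I genes, of the NKG2D ligands and of the turnover list, and 1 lower promoter factor. A filter of 5 RPKM gave 452 higher and 510 lower genes in all and 0 lower genes of the NKG2D ligand and turnover lists.

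Counting error is small at these depths. The limits are the lack of replicates, the sex difference between the libraries, the myeloid, dendritic and erythroid markers that were higher in Δ/Δ, whose part in the class I values was not tested, reads shared between near-identical class I genes, and reads of antisense genes in libraries that do not mark strand. A further limit is that the labels state neither strain nor MHC haplotype, so a difference in these between the libraries could not be checked.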
